A study of Mus musculus with 8 samples.

Results

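The genes described here carry amino acids across cell membranes. They are the members of the solute carrier families SLC1, SLC3, SLC7, SLC36, SLC38 and SLC43 on a mouse expression array, chosen by gene symbol alone and without Slc7a11. The rule took 41 genes with 63 probes, of 18217 gene symbols and 41174 probes on the array. Of these 41 genes, 34 were tested, having a probe that both arrays of some group measured well above background, and 24 were well above background on all 8 arrays. The 7 others (Slc1a7, Slc7a12, Slc7a13, Slc7a15, Slc38a5, Slc38a8 and Slc38a11) were well above background on 0 or 1 array each. One gene that the symbol rule takes, Slc7a6os, lies opposite Slc7a6 and encodes no carrier. It is included where the 34 tested genes are counted as carriers below.

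RNA came from mouse embryonic fibroblasts (MEFs), cells grown out of mouse embryos, of a Keap1–/– TR line (Keap1 null) and a WT TR line. The labels do not spell out TR, which both lines carry. Keap1 is the adaptor through which cells break down NRF2, a transcription factor encoded by Nfe2l2. The 4 groups, of 2 arrays each, were Keap1 null allografts, WT allografts, Keap1 null dishes and WT dishes. Allografts were tumours grown from injected cells in nude mice (nu/nu), taken at 100 to 150 mm3 after injection of 3000000 Keap1 null or 10000000 WT cells. Dish cells were cultured without a host. Nude mice lack a thymus and most mature T cells but keep macrophages, B cells, natural killer cells, vessels and fibroblasts of their own, so allograft RNA can come from injected and from host cells. Each genotype is 1 line, so genotype and line cannot be told apart. Whether replicates are separate cultures or animals is not stated, so p-values measure only the spread between these arrays, which may be technical.

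Amino acid carriers work as importers driven by sodium or proton gradients, or as exchangers that let 1 amino acid in as another leaves. SLC7 light chains transport, and most of them reach the cell surface only when bound to a heavy chain of the SLC3 family. Leucine, glutamine and arginine brought in this way feed protein synthesis and are sensed by the kinase complex mTORC1 at the lysosome. Several carrier genes are known targets of ATF4, a transcription factor of the response to amino acid shortage, which binds the C/EBP-ATF element. NRF2 binds the antioxidant response element.

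A log2 level below is the log2 of the processed intensity minus the 75th percentile of its array; a level of 0 is the brightness of that percentile. Levels are read across arrays within a gene and not between genes, whose probes differ in brightness. The share of probes well above background was 69.8% to 74.7% on allograft arrays and 60.6% to 64.5% on dish arrays. The probe for Keap1 itself read 1.00 and 0.92 in Keap1 null allografts, 2.85 and 2.46 in WT allografts, 2.37 and 2.22 in Keap1 null dishes and 3.32 and 2.99 in WT dishes. It was lower in both Keap1 null groups and remained bright, and its place relative to the deletion is not known here. Of 10 fibroblast markers, 10 were well above background in each group except WT dishes, where Lum was not. In the genotype comparison between allografts, 2 of these 10 markers rose and 4 fell, and in that between dishes 6 rose and 1 fell. The shares of all targets called were 41.8% and 21.1%.

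Host cell markers differed between the groups. All 13 tested macrophage markers were above background in both allograft groups. Their summed level (in units of the array's 75th percentile) was 27.8 to 28.2 in Keap1 null allografts and 102 to 116 in WT allografts, against 1.75 to 1.81 in Keap1 null dishes and 2.32 to 2.71 in WT dishes. Adgre1, Ccr2, Itgam and Fcgr1 were among those not above background in dishes. In the comparison of Keap1 null with WT allografts, 11 of the 13 fell and 1 rose, with a median log2 fold change of -2.39. Of 10 lymphocyte markers 6 fell there and 0 rose, and of 10 endothelial markers 4 fell and 0 rose. In that comparison 20.5% of all targets rose and 21.3% fell. The endothelial calls, 4 of 10, were near the 41.8% of all targets called. Of 5 neutrophil markers 2 rose and 1 fell, and of the 8 skeletal muscle and 5 adipocyte markers 1 each rose. No keratinocyte or red cell marker was called in that comparison. In bulk RNA, fewer cells of a type and less RNA per cell cannot be told apart, and the part of host cells in any carrier's change was not tested.

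For the promoters, 30 of the 41 genes matched RefSeq windows of GRCm38.p6, which run from 250 bases before to 50 bases after each annotated start. They held 41 windows. The sequence TGATGNAA, the core of the C/EBP-ATF element, was searched on both strands. It occurred in 3 of the 41 windows (7.32%), against 3.97% of all 32851 windows of that length. TGACNNNGC, the core of the antioxidant response element, occurred in 6 of the 41 (14.6%) and 12.4% of all windows. These shares count windows, so overlapping windows of 1 gene can count a match more than once. Windows of Slc7a7 shared a C/EBP-ATF match, and those of Slc7a6 shared an antioxidant response element core. The 2 motifs were not found at an overlapping place in any of the 5 windows shown. Those 5 are 4 carriers that rose in Keap1 null allografts relative to WT allografts (Slc1a4, Slc3a2, Slc7a1 and Slc38a2) and 1 that fell (Slc7a7). They are not the carriers with the largest changes. The windows of Slc1a1, Slc1a2 and Slc38a4, which changed more between allografts, held neither motif and are left out. Motif matches are in capitals.
Slc1a4, chr11:20332664-20332963, minus strand: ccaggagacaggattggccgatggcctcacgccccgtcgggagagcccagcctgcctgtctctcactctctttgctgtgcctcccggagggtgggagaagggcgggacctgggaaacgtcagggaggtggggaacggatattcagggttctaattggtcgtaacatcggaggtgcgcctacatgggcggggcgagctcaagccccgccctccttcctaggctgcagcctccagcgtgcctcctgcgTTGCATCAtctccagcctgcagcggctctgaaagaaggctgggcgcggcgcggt
Slc3a2, chr19:8713848-8714147, minus strand: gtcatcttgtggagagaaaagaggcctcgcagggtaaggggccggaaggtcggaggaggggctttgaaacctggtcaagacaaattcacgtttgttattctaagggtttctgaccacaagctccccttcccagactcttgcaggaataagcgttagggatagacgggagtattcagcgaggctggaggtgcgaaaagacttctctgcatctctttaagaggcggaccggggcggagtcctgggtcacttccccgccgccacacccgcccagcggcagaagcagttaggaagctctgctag
Slc7a1, chr5:148399855-148400154, minus strand: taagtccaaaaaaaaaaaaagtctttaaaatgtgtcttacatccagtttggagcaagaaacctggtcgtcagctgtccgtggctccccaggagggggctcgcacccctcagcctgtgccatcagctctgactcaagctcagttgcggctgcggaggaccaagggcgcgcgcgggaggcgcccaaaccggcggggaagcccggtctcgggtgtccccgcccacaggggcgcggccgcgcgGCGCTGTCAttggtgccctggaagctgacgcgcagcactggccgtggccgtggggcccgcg
Slc38a2, chr15:96699679-96699978, minus strand: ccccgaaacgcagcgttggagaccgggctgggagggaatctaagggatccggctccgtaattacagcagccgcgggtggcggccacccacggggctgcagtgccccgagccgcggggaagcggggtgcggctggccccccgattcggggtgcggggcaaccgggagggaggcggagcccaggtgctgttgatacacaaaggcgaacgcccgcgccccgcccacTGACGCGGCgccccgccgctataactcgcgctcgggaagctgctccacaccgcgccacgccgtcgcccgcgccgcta
Slc7a7, chr14:54417895-54418194, minus strand: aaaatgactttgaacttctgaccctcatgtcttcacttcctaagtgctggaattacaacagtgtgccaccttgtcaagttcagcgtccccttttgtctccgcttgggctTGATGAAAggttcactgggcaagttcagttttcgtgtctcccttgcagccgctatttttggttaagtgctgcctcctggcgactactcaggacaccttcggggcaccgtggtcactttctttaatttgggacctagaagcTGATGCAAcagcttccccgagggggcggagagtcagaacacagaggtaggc
The capitals mark a C/EBP-ATF match on the minus strand of the Slc1a4 window beginning -4 bases from the start, and a pair of matches in the Slc7a7 window, the first beginning -141 and the second -1 bases from it. In Slc7a1 and Slc38a2 they mark antioxidant response element cores beginning -11 and -27 bases from the start, where negative places lie before it. The Slc3a2 window held neither motif. A match is a run of letters and no evidence of binding. The C/EBP-ATF core stood in 2 of the 30 genes, 1 that rose and 1 that fell in Keap1 null allografts. The antioxidant response element core stood in 5 of the 30. Of these, Slc7a1 and Slc38a2 rose there, Slc36a1 and Slc43a1 fell, and Slc7a6 was not called. The calls of Slc7a1, Slc36a1 and Slc43a1 did not hold when some arrays were left out, as given below. The windows of Slc36a1, Slc43a1 and Slc7a6 with this core are not shown.

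In allografts, 11 of the 34 carriers rose and 8 fell in Keap1 null relative to WT tumours, at a Benjamini-Hochberg adjusted p below 0.05 in limma. That was 55.9% of the 34, against 41.8% of all 22922 targets tested (20.5% higher and 21.3% lower). The carriers that rose were those of acidic amino acids (Slc1a1, Slc1a2, Slc1a3), the exchangers Slc1a4 and Slc1a5, the heavy chain Slc3a2, the arginine carriers Slc7a1 and Slc7a3, and the sodium-coupled carriers Slc38a1, Slc38a2 and Slc38a7. Those that fell were Slc7a2, Slc7a4, Slc7a7, Slc7a8, Slc36a1, Slc38a4, Slc43a1 and Slc43a3. Among those that rose, Slc1a1 was tested only because Keap1 null allografts were above background. The median log2 fold change of the 34 was -0.20, against 0.00 over all targets, and 12 of the calls were at least 2-fold.

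In dishes, 6 of the 34 rose and 5 fell in Keap1 null relative to WT, 32.4% against 21.1% of all targets (11.4% higher and 9.78% lower). Slc1a2, Slc1a3, Slc7a2, Slc36a4, Slc38a4 and Slc38a10 rose, and Slc1a5, Slc7a1, Slc7a5, Slc7a6os and Slc7a7 fell. The median of the 34 was 0.02, against -0.05 over all targets, and 5 calls were at least 2-fold. The count rested on few arrays: it was 5 without the first Keap1 null dish array, 6 without the second and 7 without the second WT dish array. Of the 11, 4 were called the other way in allografts: Slc1a5 and Slc7a1 rose there, and Slc7a2 and Slc38a4 fell. The share of all targets with such opposite calls is not given here. On leaving out any 1 of the 8 arrays the Slc7a1 call in allografts ended, as did the Slc1a5 call in dishes on leaving out any dish array. Both Slc7a2 calls ended with normexp background correction. Slc38a4 kept both calls in every alternative, by its brighter probe.

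Between allograft and dish, 10 carriers rose and 9 fell in Keap1 null, 55.9% against 64.9% of all targets (35.8% higher and 29.1% lower). In WT, 13 rose and 10 fell, 67.6% against 68.1% of all targets (35.8% higher and 32.2% lower). Slc7a7, Slc7a8, Slc43a1 and Slc43a2 rose in both lines and Slc1a4, Slc7a6, Slc7a6os and Slc38a7 fell in both. Slc7a3 rose in both lines when arrays were scaled to their 75th percentile, but its change in WT turned with scaling to the median. Slc1a2, Slc3a2 and Slc38a2 rose in Keap1 null and fell in WT, while Slc7a2 and Slc7a4 did the reverse; the rises of Slc1a2, Slc3a2 and Slc38a2 were no longer above 0 with median scaling. The median of the 34 was -0.06 in Keap1 null and 0.39 in WT. These growth comparisons depended on the scaling. The median intensity was 106 to 137 on allograft arrays and 44.8 to 61.9 on dish arrays, and scaling each array to its median moved the median of all targets to -0.78 in Keap1 null and -1.01 in WT. With it 6 carriers rose and 20 fell in Keap1 null, and 7 rose and 19 fell in WT. With quantile normalization the split was 9 and 13 in Keap1 null and 9 and 11 in WT, and unscaled it was 11 and 5 in Keap1 null and 17 and 7 in WT.

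The difference between the genotype effects in allograft and in dish was called for 21 of the 34 (12 higher and 9 lower in allograft), 61.8% against 32.9% of all targets (15.8% higher and 17% lower). Unscaled the split was 7 higher and 14 lower, with the median of all targets at -0.32. In the genotype comparison between allografts the unscaled split was 8 higher and 11 lower, and in that between dishes 5 higher and 2 lower. All 93 calls over the 5 comparisons had the same sign on each of the 2 slides, which hold 1 array of every group. A called change is the mean of its 2 within-slide differences, so a shared sign is close to given and adds no support.

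**Figure D1:**
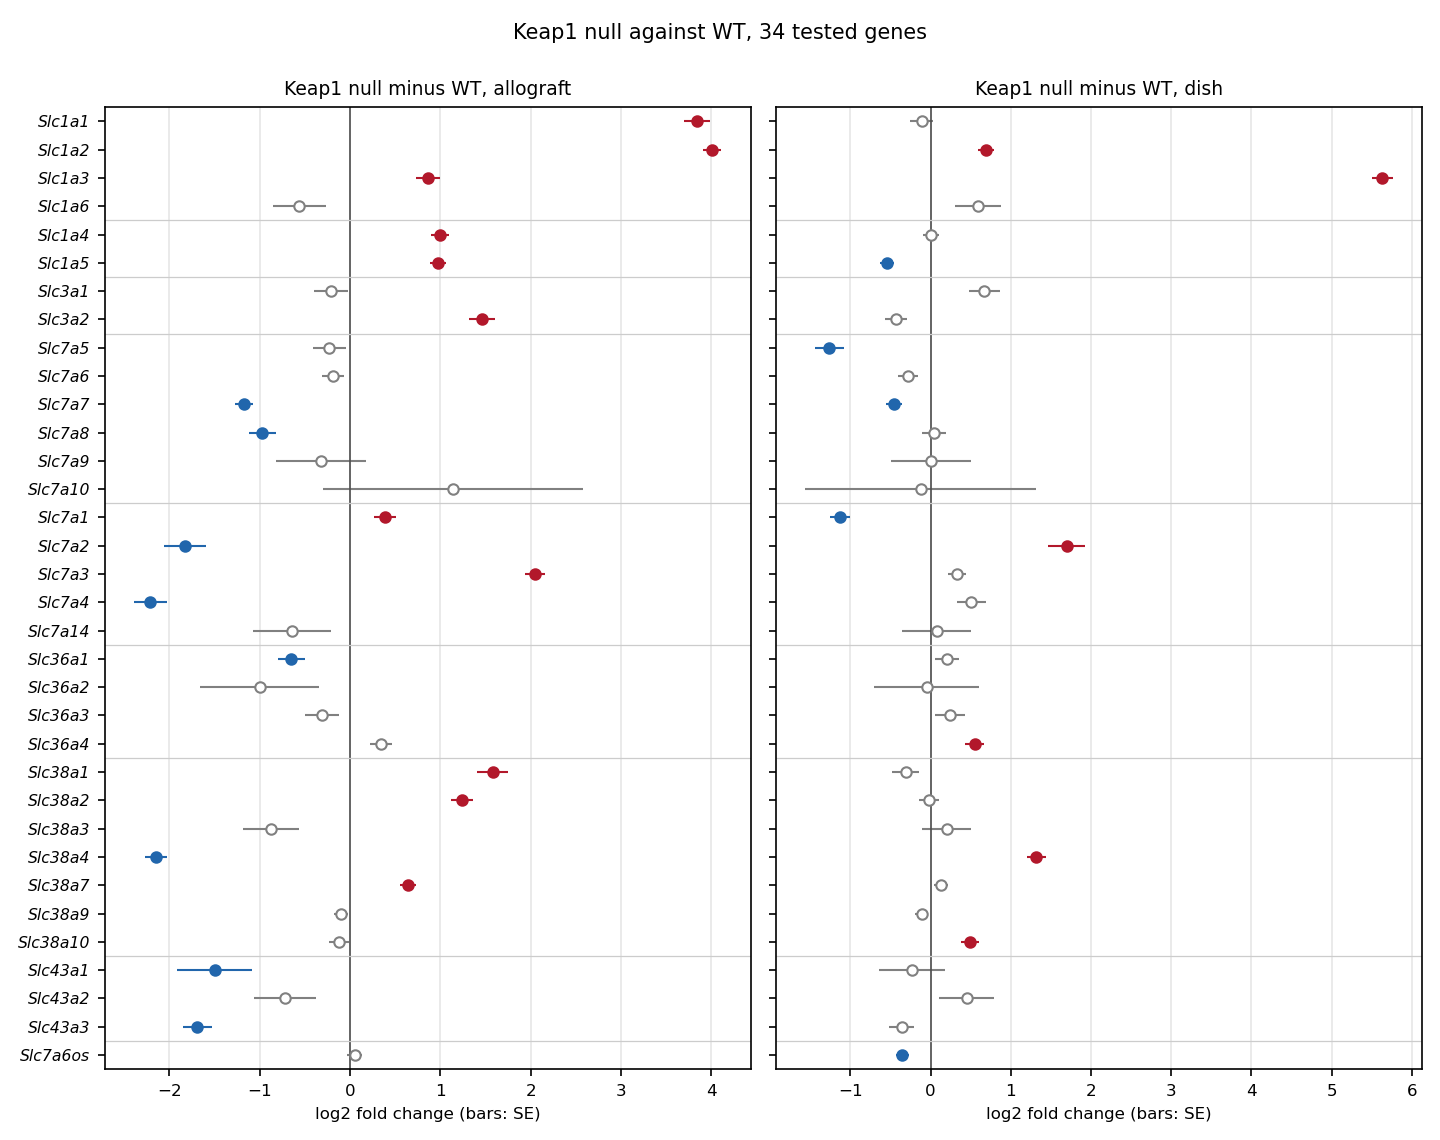
Log2 fold change of Keap1 null minus WT for the 34 tested genes, ordered by family, in allografts (left) and in dishes (right), with bars for 1 standard error and filled points for calls (red higher, blue lower, 2 arrays per group). In allografts 11 genes are filled red and 8 blue, and in dishes 6 and 5.

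Of the 4 tested carriers of acidic amino acids, 3 were called higher in Keap1 null allografts than in WT allografts. Slc1a1, Slc1a2 and Slc1a3 import glutamate and aspartate with sodium, and Slc1a1 also takes up cysteine. Slc1a1 read -5.10 and -5.19 in Keap1 null allografts, -9.09 and -8.88 in WT allografts, -9.03 and -8.96 in Keap1 null dishes and -8.72 and -9.06 in WT dishes. Only the Keap1 null allografts were above background, and they overlapped no other group. The gene was tested because of that group alone, so its calls set the group that let it in against signal below background. Against WT allografts the gene was at least 4.33-fold higher (limma adjusted p = 2.26e-05), and against Keap1 null dishes at least 2.96-fold higher (adjusted p = 9.49e-06). An "at least" fold sets the bright group against the dimmest signal that counts as above background on each array.

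Slc1a2, the main glutamate importer of astrocytes, read -4.36 and -4.44 in Keap1 null allografts, -8.33 and -8.48 in WT allografts, -5.09 and -5.18 in Keap1 null dishes and -5.89 and -5.76 in WT dishes. Only WT allografts were below background, and no groups overlapped. It was at least 7.24-fold higher in Keap1 null allografts than in WT allografts (limma adjusted p = 9.06e-06) and 1.62-fold higher in Keap1 null dishes (adjusted p = 0.00617). The dish call ended without the first Keap1 null dish array (adjusted p = 0.0548), with quantile normalization (log2 0.50, adjusted p = 0.0663) and with normexp background correction (0.19, adjusted p = 0.385). A second probe, below background in both WT groups, was called higher in Keap1 null dishes as well (log2 2.44, adjusted p = 0.00203). In WT the gene was at least 2.69-fold lower in allografts than in dishes (adjusted p = 8.59e-06), and the second probe gave a log2 change of -0.51 there that was not called (adjusted p = 0.142). In Keap1 null its rise of 0.73 on the log2 scale turned to -0.14 with quantile normalization and to -0.08 with median scaling, and was not called with normexp (0.24, adjusted p = 0.0991). The second probe, above background in both Keap1 null groups, rose by 2.85 on the log2 scale there (adjusted p = 0.000243).

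Slc1a3, the glutamate importer first known from glia, showed its largest contrast in dishes. Its levels were -3.14 and -3.31 in Keap1 null allografts, -4.13 and -4.05 in WT allografts, -3.21 and -3.11 in Keap1 null dishes and -8.67 and -8.93 in WT dishes. Both WT dish arrays were below background, whereas the 2 Keap1 null groups overlapped. Keap1 null was at least 11.3-fold higher than WT in dishes (limma adjusted p = 2.27e-05) and 1.82-fold higher in allografts (adjusted p = 0.00289, or 0.05 unscaled). In WT it rose at least 5.93-fold in allografts relative to dishes (adjusted p = 2.51e-06). In Keap1 null the same difference was -0.06 on the log2 scale (adjusted p = 0.679). In each line 35.8% of all targets rose in allografts relative to dishes. All 13 tested macrophage markers and 9 of 10 fibroblast markers rose there in both lines. Their part in the levels of Slc1a3 was not tested. Slc1a6, known from Purkinje cells, was not called in any of the 5 comparisons, although with the slides as a block it was called higher in WT allografts than in WT dishes (log2 0.79, adjusted p = 0.0356).

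The neutral exchangers of the SLC1 family differed by genotype in allografts. Slc1a5 is the exchanger through which many proliferating cells take up glutamine. It read 3.94 and 3.89 in Keap1 null allografts, 3.02 and 2.86 in WT allografts, 2.70 and 2.60 in Keap1 null dishes and 3.19 and 3.19 in WT dishes. The Keap1 null allografts were the highest and the Keap1 null dishes the lowest of the 4 groups. Keap1 null was 1.96-fold higher in allografts (limma log2 0.97 ± 0.09 SE, adjusted p = 0.00059) and 1.46-fold lower in dishes (adjusted p = 0.012). The dish call ended when any of the 4 dish arrays was left out (adjusted p 0.0553 to 0.0922) and unscaled (0.315), and with the slides as a block the gene was also called lower in WT allografts than in WT dishes (adjusted p = 0.031).

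Slc1a4 exchanges alanine, serine and cysteine, and its promoter holds the C/EBP-ATF match shown above. Its levels were -0.52 and -0.69 in Keap1 null allografts, -1.67 and -1.54 in WT allografts, -0.34 and -0.22 in Keap1 null dishes and -0.28 and -0.29 in WT dishes. WT allografts stood lowest and the 2 dish groups overlapped. It was 2.00-fold higher in Keap1 null allografts than in WT allografts (limma adjusted p = 0.000796) and 2.49-fold lower in WT allografts than in WT dishes (adjusted p = 0.000118). A smaller fall of 0.33 on the log2 scale in Keap1 null allografts relative to dishes (adjusted p = 0.0352) ended without either Keap1 null dish array, the second Keap1 null allograft or either WT dish array (0.0572 to 0.175), unscaled (0.295), with normexp (0.241) and without the filter on dim probes (0.0683).

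Of the 2 heavy chains, Slc3a2 (the CD98 heavy chain) was called higher in Keap1 null allografts. It carries Slc7a5, Slc7a6, Slc7a7, Slc7a8 and Slc7a11 to the cell surface. Its levels were 4.99 and 4.96 in Keap1 null allografts, 3.58 and 3.45 in WT allografts, 4.26 and 4.08 in Keap1 null dishes and 4.76 and 4.45 in WT dishes. The Keap1 null allografts were highest, the WT allografts lowest, and no groups overlapped. Slc3a2 was 2.76-fold higher in Keap1 null allografts than in WT allografts (limma log2 1.46 ± 0.14 SE, adjusted p = 0.000491), 1.75-fold higher than in Keap1 null dishes (adjusted p = 0.00284, but log2 -0.00 with median scaling) and 2.13-fold lower in WT allografts than in WT dishes (adjusted p = 0.000731). In dishes the genotype difference of -0.43 was not called (adjusted p = 0.0775), although it was with the slides as a block (0.0286). A second probe of the gene gave log2 differences of 1.35 between allografts and -0.52 between dishes.

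The other heavy chain, Slc3a1, pairs with Slc7a9 in kidney. It was called once, 1.48-fold higher in WT allografts than in WT dishes (limma adjusted p = 0.0414), and this turned with quantile normalization (log2 -0.49) and with median scaling (-0.43). The call also ended without any 1 array of the WT allografts, WT dishes or Keap1 null dishes (adjusted p 0.0673 to 0.16), with normexp (0.6) and without the filter on dim probes (0.0586). With the slides as a block the gene was called higher in Keap1 null dishes than in WT dishes (log2 0.67, adjusted p = 0.0495) and lower for the difference between growth conditions (log2 -0.89, adjusted p = 0.0458). Slc7a11, the cystine carrier left out of the set, was 278-fold higher in Keap1 null allografts than in WT allografts and 16.2-fold higher in dishes.

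Among the light chains of the set, none of Slc7a5, Slc7a6, Slc7a7 and Slc7a8 was called higher in Keap1 null allografts than in WT allografts. Slc7a5 (LAT1), the leucine and tryptophan exchanger, read 0.57 and 0.23 in Keap1 null allografts, 0.50 and 0.77 in WT allografts, 0.67 and 0.97 in Keap1 null dishes and 2.00 and 2.16 in WT dishes. WT dishes stood alone above the rest and the 2 allograft groups overlapped. Keap1 null was 2.40-fold lower in dishes (limma log2 -1.26 ± 0.18 SE, adjusted p = 0.00544), and WT allografts were 2.73-fold lower than WT dishes (adjusted p = 0.000674). Between allografts the difference was -0.23 on the log2 scale with a standard error of 0.18 (adjusted p = 0.358). Slc7a6 (y+LAT2), an arginine-for-glutamine exchanger, read -0.52 and -0.57 in Keap1 null allografts, -0.26 and -0.44 in WT allografts, -0.12 and -0.28 in Keap1 null dishes and 0.18 and -0.01 in WT dishes. Allografts lay below dishes in each line. Slc7a6 was called lower in allografts than in dishes, 1.27-fold in Keap1 null (limma adjusted p = 0.046) and 1.35-fold in WT (adjusted p = 0.0198). The Keap1 null call ended without any of the 8 arrays (0.0503 to 0.217), and the WT call without the first WT dish array (0.0975) or the second WT allograft (0.0991). Both also ended unscaled (0.247 and 0.865) and with normexp (0.184 and 0.109), and the Keap1 null call without the filter on dim probes (0.0818). A second probe of Slc7a6, also above background on all arrays, gave larger falls, -1.12 on the log2 scale in Keap1 null (adjusted p = 0.00174) and -1.13 in WT (adjusted p = 0.00145). With the slides as a block Slc7a6 was also called lower in Keap1 null dishes than in WT dishes (adjusted p = 0.0478).

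Slc7a7 and Slc7a8 rose 15.5-fold or more in allografts relative to dishes in both lines. Slc7a7 (y+LAT1) exports arginine and lysine in exchange for neutral amino acids and is known in kidney, gut and macrophages. It read 1.21 and 1.33 in Keap1 null allografts, 2.45 and 2.44 in WT allografts, -3.37 and -3.27 in Keap1 null dishes and -2.78 and -2.96 in WT dishes. Every allograft array was far above every dish array, and WT was above Keap1 null in both conditions. The gene was 24.1-fold higher in allografts than in dishes in Keap1 null (limma adjusted p = 2.84e-06) and 39.8-fold higher in WT (adjusted p = 1.14e-06). Keap1 null was 2.25-fold lower in allografts (adjusted p = 0.000394) and 1.37-fold lower in dishes (adjusted p = 0.0302). The dish call ended without either Keap1 null dish array, the first WT dish array or either WT allograft (0.0588 to 0.168), unscaled (0.369), with normexp (0.115) and without the filter on dim probes (0.0672).

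Slc7a8 (LAT2), an exchanger of neutral amino acids, read -1.87 and -2.0 in Keap1 null allografts, -1.17 and -0.75 in WT allografts, -5.83 and -5.96 in Keap1 null dishes and -5.94 and -5.93 in WT dishes. Allografts were above dishes without overlap, while the 2 dish groups overlapped. It was 15.5-fold higher in allografts than in dishes in Keap1 null (limma adjusted p = 1.02e-05), 31.4-fold higher in WT (adjusted p = 3.79e-06), and 1.97-fold lower in Keap1 null allografts than in WT allografts (adjusted p = 0.0039). The macrophage marker sum, 27.8 to 28.2 in Keap1 null allografts against 102 to 116 in WT allografts, ran the same way as both genes, and its part in them was not tested. Slc7a9 and Slc7a10, light chains of kidney and of brain and fat, were not called. Slc7a10 read -5.78 and -6.01 in Keap1 null allografts and -4.59 and -9.49 in WT allografts, and was below background in dishes. The WT allografts disagreed: without the first, Keap1 null was higher (log2 3.59, adjusted p = 0.000616), and without the second it was lower (log2 -1.30, adjusted p = 0.0111).

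**Figure D2:**
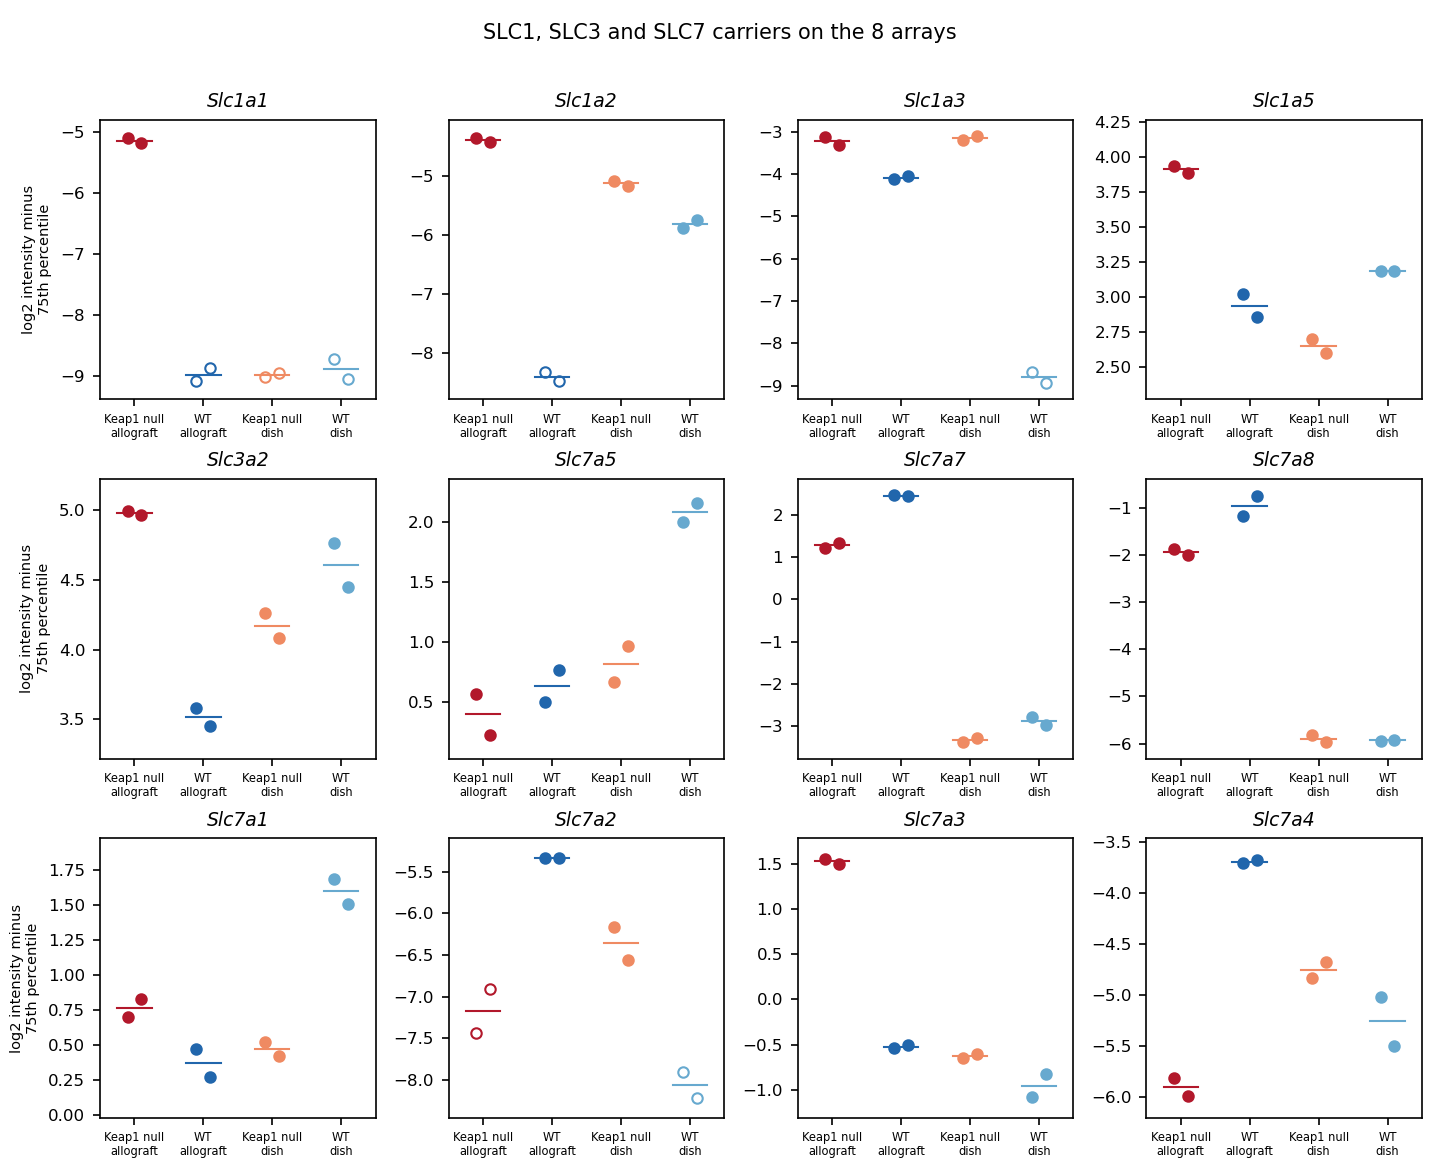
Log2 level (log2 intensity minus the 75th percentile of the array) of 12 SLC1, SLC3 and SLC7 genes on the 8 arrays, 1 point per array with a line at the group mean; open points mark groups in which neither array was well above background. Slc1a1 is above background in Keap1 null allografts alone, and Slc7a7 and Slc7a8 are higher in all allografts than in all dishes.

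The carriers of cationic amino acids split by member. Slc7a1 (CAT1), the common importer of arginine and lysine, read 0.70 and 0.83 in Keap1 null allografts, 0.47 and 0.27 in WT allografts, 0.52 and 0.42 in Keap1 null dishes and 1.69 and 1.51 in WT dishes. WT dishes stood well above the rest, and WT allografts overlapped Keap1 null dishes. Keap1 null was 2.19-fold lower than WT in dishes (limma log2 -1.13 ± 0.12 SE, adjusted p = 0.00195), and WT allografts were 2.34-fold lower than WT dishes (adjusted p = 0.000273). The 1.31-fold higher level in Keap1 null allografts (adjusted p = 0.0441) ended without any of the 8 arrays (0.0513 to 0.188), with quantile, median or no scaling, with normexp and without the filter on dim probes (0.0608 to 0.545).

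Slc7a3 (CAT3), an arginine importer known from brain and embryo, read 1.55 and 1.50 in Keap1 null allografts, -0.54 and -0.51 in WT allografts, -0.65 and -0.60 in Keap1 null dishes and -1.08 and -0.83 in WT dishes. The Keap1 null allografts stood above all 6 other arrays. They were 4.14-fold higher than WT allografts (limma log2 2.05 ± 0.11 SE, adjusted p = 6.37e-05) and 4.45-fold higher than Keap1 null dishes (adjusted p = 2.42e-05). In WT the rise of 0.44 (adjusted p = 0.0125) became -0.55 with median scaling and ended without the first WT dish array (0.0539) or the second WT allograft (0.0561).

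Slc7a2 (CAT2), the arginine importer induced in activated macrophages, read -7.44 and -6.91 in Keap1 null allografts, -5.34 and -5.34 in WT allografts, -6.16 and -6.56 in Keap1 null dishes and -7.90 and -8.21 in WT dishes. Keap1 null allografts and WT dishes were below background, and no groups overlapped. It was at least 2.63-fold lower in Keap1 null allografts than in WT allografts (limma adjusted p = 0.00158) and in dishes at least 1.23-fold higher (adjusted p = 0.00458). All 5 calls of this dim gene ended with normexp background correction (adjusted p 0.223 to 0.645), and the fall in Keap1 null allografts relative to dishes, at least 1.3-fold, ended without the first array of either group (0.108 and 0.0902). Slc7a4, a CAT-like protein, read -5.81 and -5.99 in Keap1 null allografts, -3.71 and -3.68 in WT allografts, -4.83 and -4.68 in Keap1 null dishes and -5.02 and -5.50 in WT dishes. WT allografts were highest and Keap1 null allografts lowest.

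Slc7a4 was 4.62-fold lower in Keap1 null allografts than in WT allografts (limma log2 -2.21 ± 0.18 SE, adjusted p = 0.000262). Against dishes it fell 2.21-fold in Keap1 null allografts (adjusted p = 0.00187) and rose 2.97-fold in WT allografts (adjusted p = 0.000459, or 0.0971 with quantile normalization). Slc7a14, a CAT-like protein of lysosomes, was not called by its brighter probe. A second probe, above background in Keap1 null allografts alone, was higher there than in WT allografts (limma adjusted p = 0.00248). It was tested only because of that group, and its fitted log2 difference of 2.71 is no measured size.

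The sodium-coupled carriers of the SLC38 family held both rises and falls. Slc38a1 (SNAT1) and Slc38a2 (SNAT2) import glutamine, alanine and other small neutral amino acids, and Slc38a2 is known to rise when amino acids are short. Slc38a1 read 4.19 and 4.06 in Keap1 null allografts, 2.75 and 2.35 in WT allografts, 4.15 and 3.96 in Keap1 null dishes and 4.48 and 4.26 in WT dishes. WT allografts stood far below the rest, and the 2 Keap1 null groups overlapped. The gene was 2.99-fold higher in Keap1 null allografts than in WT allografts (limma log2 1.58 ± 0.17 SE, adjusted p = 0.000812) and 3.53-fold lower in WT allografts than in WT dishes (adjusted p = 0.000206). Its 5 probes gave log2 differences between allografts of 1.42 to 1.65, and in Keap1 null the growth difference was 0.07 (adjusted p = 0.722).

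Slc38a2, whose promoter holds the antioxidant response element core shown above, read 5.21 and 5.33 in Keap1 null allografts, 4.13 and 3.92 in WT allografts, 4.63 and 4.45 in Keap1 null dishes and 4.57 and 4.55 in WT dishes. Keap1 null allografts were highest, WT allografts lowest, and the dish groups overlapped. It was 2.37-fold higher in Keap1 null allografts than in WT allografts (limma log2 1.24 ± 0.12 SE, adjusted p = 0.000517). Relative to dishes it rose 1.66-fold in Keap1 null allografts (adjusted p = 0.00233, but log2 -0.08 with median scaling) and fell 1.45-fold in WT allografts (adjusted p = 0.00763, but log2 0.02 with quantile normalization and -0.15 unscaled, adjusted p = 0.563). A second probe fell more in WT allografts (log2 -1.70, adjusted p = 1.9e-05) and was also called lower in Keap1 null dishes than in WT dishes (-0.39, adjusted p = 0.0247). Slc38a7, which lets glutamine out of lysosomes, was 1.56-fold higher in Keap1 null allografts than in WT allografts (adjusted p = 0.00205, or 0.145 unscaled). It was 1.24-fold lower in Keap1 null allografts than in dishes, a call that ended without any 1 of these 4 arrays (0.0534 to 0.112), unscaled (0.25) and with normexp (0.143). In WT it was 1.77-fold lower in allografts than in dishes (adjusted p = 0.000333, or 0.0896 unscaled).

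Slc38a4 (SNAT4), a carrier of neutral and cationic amino acids that is imprinted in the mouse, ran the other way. It read -2.30 and -2.19 in Keap1 null allografts, -0.25 and 0.06 in WT allografts, 0.96 and 0.92 in Keap1 null dishes and -0.37 and -0.38 in WT dishes. Keap1 null held both the lowest group, in allografts, and the highest, in dishes. It was 4.42-fold lower than WT in allografts (limma log2 -2.15 ± 0.12 SE, adjusted p = 8.61e-05) and 2.50-fold higher in dishes (adjusted p = 0.00117). Within Keap1 null, allografts were 9.10-fold lower than dishes (adjusted p = 1.03e-05). A second probe gave -1.57 between allografts (adjusted p = 0.00148) and 0.62 between dishes (adjusted p = 0.0751), and was called lower in WT allografts than in WT dishes (-1.02), where the first gave 0.28 (adjusted p = 0.0882).

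Slc38a10 was 1.40-fold higher in Keap1 null dishes than in WT dishes (limma adjusted p = 0.0275), a call that ended without either Keap1 null dish array or the second WT dish array (0.103 to 0.138), with median or no scaling (0.226 and 0.0869), with normexp (0.0571), without the filter on dim probes (0.0597) and with the mean of its probes (0.0533). In WT it was 1.46-fold higher in allografts than in dishes (adjusted p = 0.00526), a change that became -0.44 on the log2 scale with median scaling. A second probe of Slc38a10 was called in neither comparison (0.29 and 0.20 on the log2 scale, adjusted p = 0.207 and 0.24). Slc38a9, the lysosomal arginine sensor of mTORC1, was not called by its brighter probe in any comparison, yet a dimmer probe was called in all 5, with log2 differences of -0.70 between allografts, 0.64 between dishes, 0.70 for growth in Keap1 null, 2.04 for growth in WT and -1.34 for the difference of the genotype effects. Slc38a3 was not called, but with the slides as a block it was lower in Keap1 null allografts than in WT allografts (log2 -0.88, adjusted p = 0.0406).

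All 3 SLC43 members rose in WT allografts relative to dishes, and 2 of them, Slc43a1 and Slc43a2, in Keap1 null. Slc43a1 (LAT3) and Slc43a2 (LAT4) let branched-chain amino acids, phenylalanine and methionine pass by facilitated diffusion, and Slc43a3 is known to carry purine bases. Slc43a1 read -5.38 and -4.58 in Keap1 null allografts, -3.45 and -3.49 in WT allografts, -7.86 and -7.56 in Keap1 null dishes and -6.95 and -8.01 in WT dishes. Both dish groups were below background and overlapped. It was 2.84-fold lower in Keap1 null allografts than in WT allografts (limma adjusted p = 0.0292), a call that ended without the first Keap1 null allograft (0.132) or either WT allograft (0.106 and 0.101). Against dishes it rose at least 3.32-fold in Keap1 null allografts (adjusted p = 0.00166) and at least 9.12-fold in WT allografts (adjusted p = 0.000308).

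Slc43a2 read -4.22 and -3.86 in Keap1 null allografts, -3.18 and -3.45 in WT allografts, -5.27 and -4.78 in Keap1 null dishes and -5.01 and -5.93 in WT dishes. Allografts were above dishes, and the dish groups overlapped. It rose 4.45-fold in WT allografts relative to dishes (limma adjusted p = 0.00199) and 1.98-fold in Keap1 null (adjusted p = 0.0453). The Keap1 null call ended with the slides as a block (0.0627), with quantile or median scaling (0.758 and 0.656), with normexp (0.0818), without the filter on dim probes (0.0663) and without any Keap1 null array or either WT allograft (0.0564 to 0.192). Slc43a3 read 0.57 and 0.71 in Keap1 null allografts, 2.53 and 2.11 in WT allografts, 0.91 and 0.79 in Keap1 null dishes and 1.30 and 1.12 in WT dishes.

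WT allografts stood alone at the top for Slc43a3, which was 3.22-fold lower in Keap1 null allografts than in WT allografts (limma log2 -1.69 ± 0.16 SE, adjusted p = 0.000576). It rose 2.16-fold in WT allografts relative to dishes (adjusted p = 0.00143, or 0.579 with median scaling), while in Keap1 null its difference was -0.21 on the log2 scale (adjusted p = 0.305). As given above, 11 of 13 macrophage, 6 of 10 lymphocyte and 4 of 10 endothelial markers fell in Keap1 null relative to WT allografts. There 41.8% of all targets were called and 21.3% fell. The part of these markers in Slc43a3 was not tested.

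**Figure D3:**
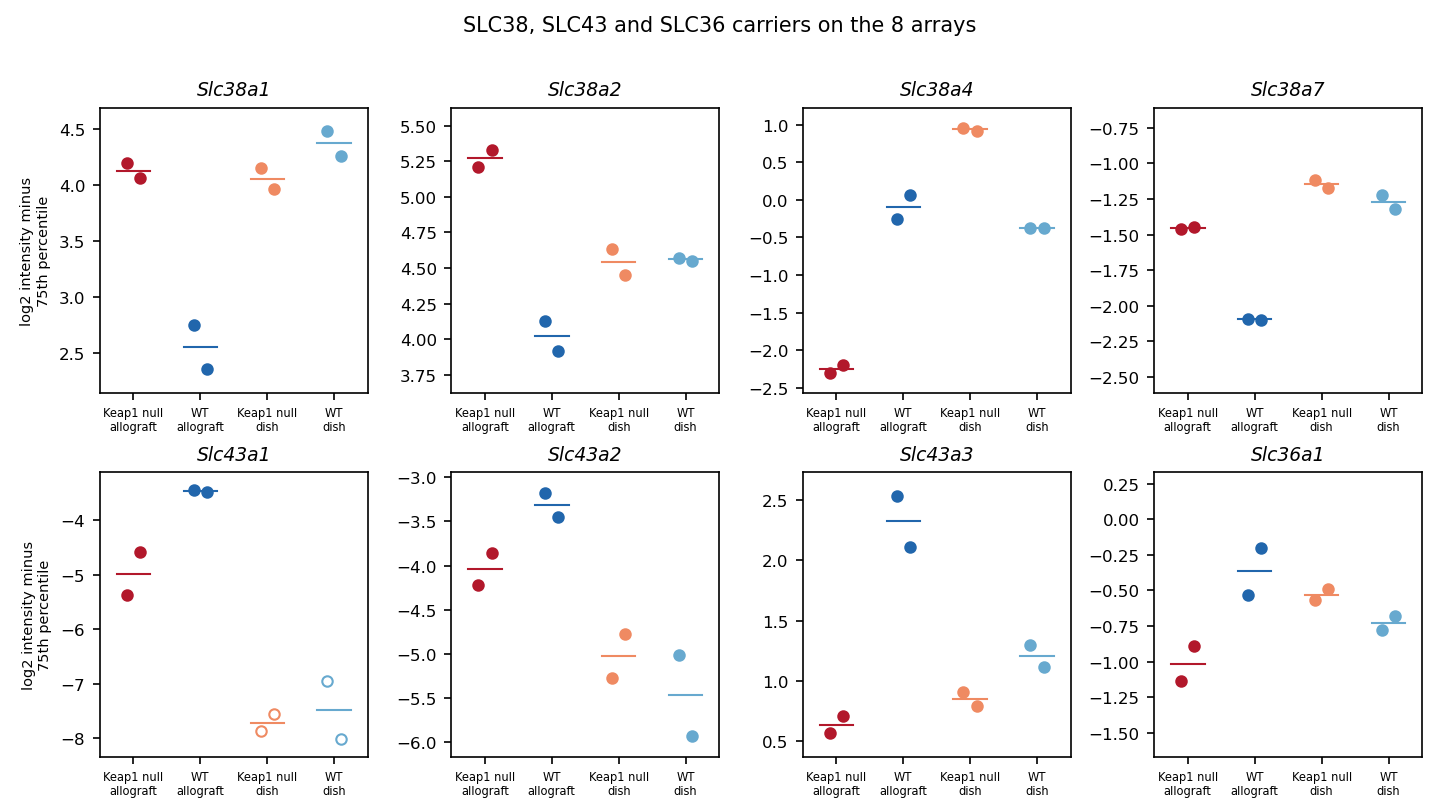
Log2 level of 8 SLC38, SLC43 and SLC36 genes on the 8 arrays, drawn as 1 point per array with a line at the group mean and open points where neither array of a group was well above background. WT allografts are lowest for Slc38a1 and highest for Slc43a3, and Keap1 null allografts are lowest for Slc38a4.

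Each of the 4 proton-coupled SLC36 carriers was called in at least 1 comparison. The growth comparisons alone called 64.9% of all targets in Keap1 null and 68.1% in WT, and Slc36a2 and Slc36a3 were called only there. Every SLC36 call ended on leaving out some 1 array. Slc36a1 (PAT1) moves small neutral amino acids out of lysosomes. It was 1.57-fold lower in Keap1 null allografts than in WT allografts (limma adjusted p = 0.0159), a call that ended without the first Keap1 null allograft (0.0761) or the second WT allograft (0.0703). It was 1.4-fold lower in Keap1 null allografts than in dishes (adjusted p = 0.0282), which ended without either Keap1 null dish array or the first Keap1 null allograft (0.0799 to 0.125) and unscaled (0.0951). With the slides as a block it was also called higher in WT allografts than in WT dishes (log2 0.36, adjusted p = 0.0179), and this became -0.62 with median scaling.

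Slc36a2 read -6.94 and -6.06 in Keap1 null allografts, -4.60 and -6.41 in WT allografts, -7.56 and -8.57 in Keap1 null dishes and -7.91 and -8.12 in WT dishes. Both WT allografts and 1 of the 2 Keap1 null allografts were above background, and the 2 allograft groups overlapped. It was at least 2.23-fold higher in WT allografts than in WT dishes (limma adjusted p = 0.0163), a call that ended without either WT dish array or the first WT allograft (0.0536 to 0.0681), with quantile or median scaling (0.0867 and 0.0657) and with normexp (0.388). Slc36a3 was 1.77-fold lower in Keap1 null allografts than in dishes (adjusted p = 0.0102), which ended without the first Keap1 null dish array (0.0577) or the first Keap1 null allograft (0.053), with normexp (0.241) and with the mean of its probes (0.0629). Slc36a4 (PAT4) was 1.47-fold higher in Keap1 null dishes than in WT dishes (adjusted p = 0.0279), a call that ended without any of the dish arrays or either WT allograft (0.0526 to 0.152), with quantile, median or no scaling, with normexp and without the filter on dim probes (0.0571 to 0.2). It was 1.39-fold higher in WT allografts than in WT dishes (adjusted p = 0.0148), which turned with quantile normalization (log2 -0.41) and median scaling (-0.51) and ended with normexp (0.24) and without the second WT dish array (0.0751) or the first WT allograft (0.0703). With the slides as a block it was also called higher in Keap1 null allografts than in WT allografts (adjusted p = 0.0218) and in Keap1 null allografts than in dishes (0.0314).

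Slc7a6os read 1.05 and 1.06 in Keap1 null allografts, 1.00 and 1.02 in WT allografts, 1.86 and 1.91 in Keap1 null dishes and 2.22 and 2.26 in WT dishes. Dishes were above allografts in both lines. It fell 1.78-fold in Keap1 null (limma adjusted p = 0.000267) and 2.34-fold in WT allografts relative to dishes (adjusted p = 5.4e-05). It was 1.28-fold lower in Keap1 null dishes than in WT dishes (adjusted p = 0.0288), a call that ended without any of the dish arrays or either WT allograft (0.0552 to 0.175), with quantile or no scaling, with normexp and without the filter on dim probes (0.0758 to 0.637).

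**Figure D4:**
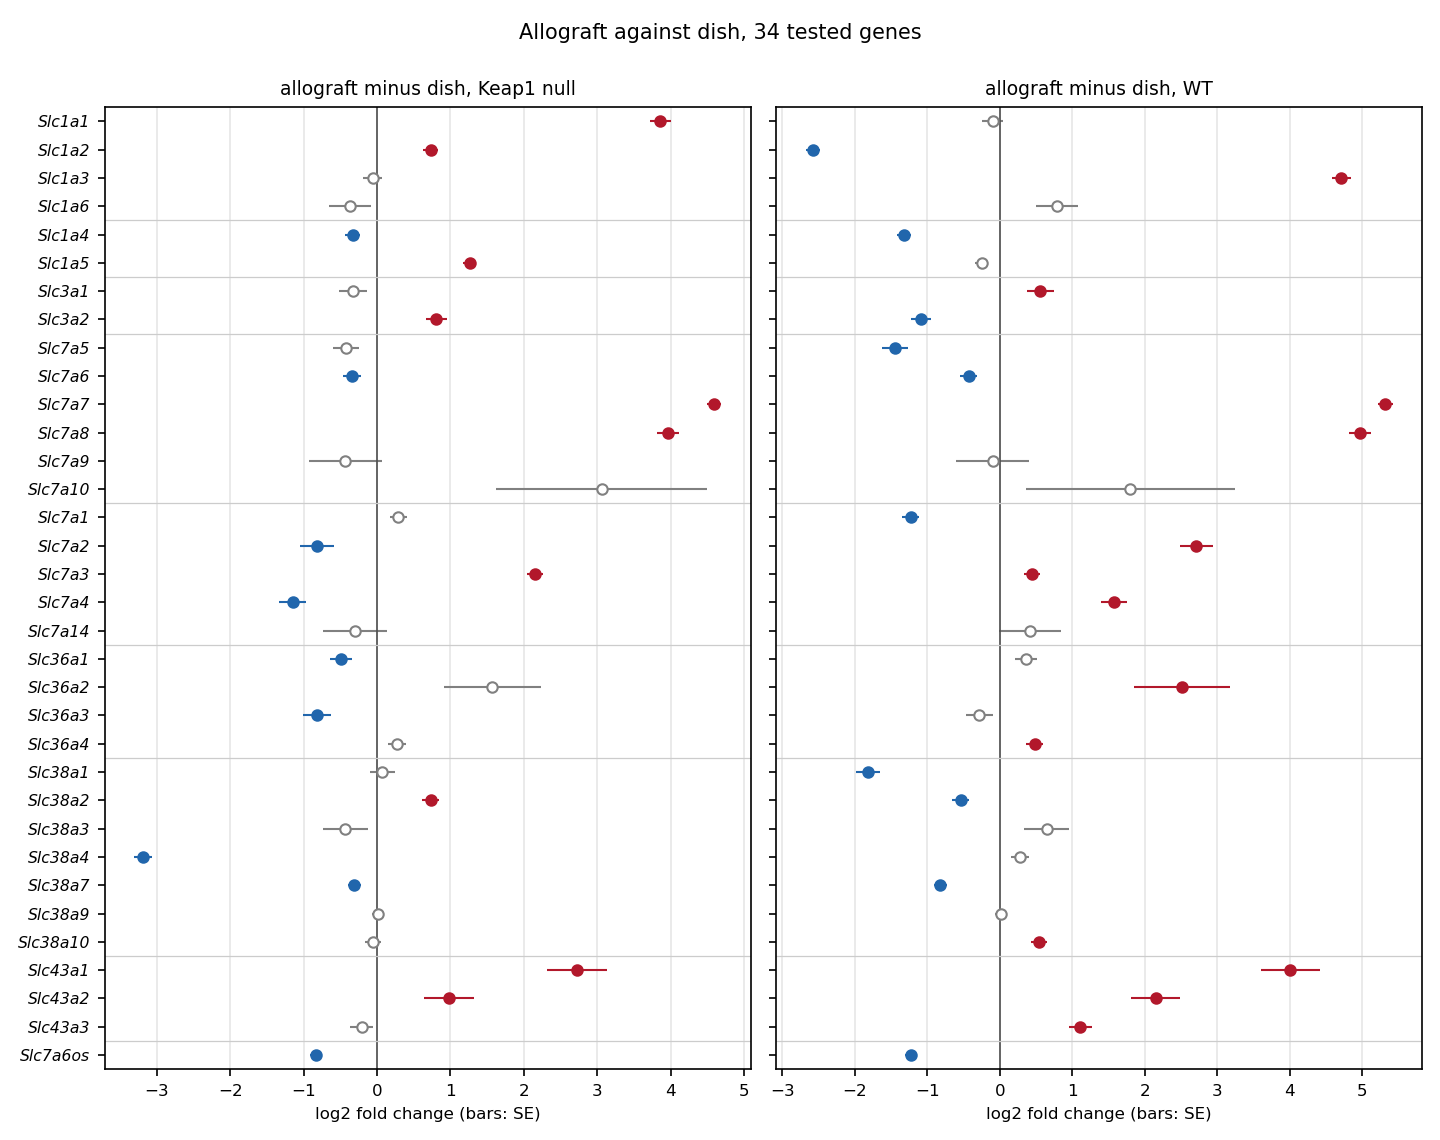
Log2 fold change of allograft minus dish for the 34 tested genes in Keap1 null (left) and WT (right), with bars for 1 standard error and filled points for calls. Slc7a7 and Slc7a8 lie farthest to the right in both lines; with median scaling the changes of Slc1a2, Slc3a2 and Slc38a2 in Keap1 null and of Slc3a1, Slc7a3, Slc36a4 and Slc38a10 in WT turn, as do those of Slc3a1, Slc36a4 and Slc38a2 in WT and of Slc1a2 in Keap1 null with quantile normalization.

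The genotype effect differed between allograft and dish for at least 1 member of each of the 6 families, with 32.9% of all targets called for this difference. For SLC36 this was Slc36a1 alone, whose call ended on leaving out any 1 of 6 of the arrays. Among members above background in all 4 groups, positive differences included 1.90 ± 0.19 for Slc3a2 and 1.89 ± 0.24 for Slc38a1 on the log2 scale (SE, limma adjusted p = 0.00108 and 0.00229), and 1.72 for Slc7a3 (adjusted p = 0.000689). Negative differences among them included -3.47 ± 0.17 for Slc38a4 (adjusted p = 0.000131) and -2.72 ± 0.25 for Slc7a4 (adjusted p = 0.000753). For Slc38a4 the genotype effect was negative in allografts and positive in dishes. A second probe of Slc38a2 gave 2.11, against 1.27 by the brighter one, and a second probe of Slc38a4 gave -2.19. Slc1a1, Slc1a2, Slc1a3 and Slc7a2 were also called, the first pair higher and the others lower in allografts, but each had at least 1 group below background, so the size of their difference was not measured.

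**Figure D5:**
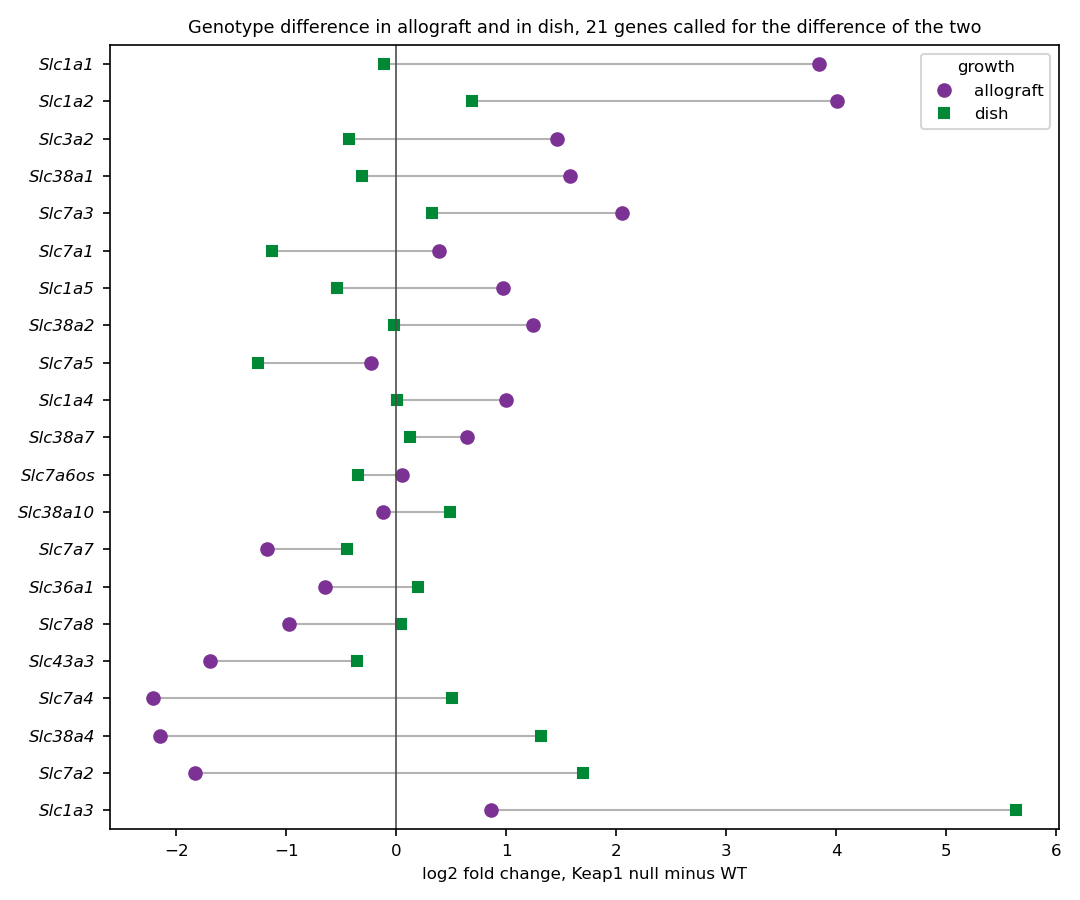
Log2 fold change of Keap1 null minus WT in allografts (circles) and in dishes (squares) for the 21 genes whose 2 genotype effects differed, sorted by the difference. The upper 12 genes have the allograft value to the right of the dish value (1.46 against -0.43 for Slc3a2), and the lower 9 have it to the left (-2.15 against 1.32 for Slc38a4); values of Slc1a1, Slc1a2, Slc1a3 and Slc7a2 include groups below background, where the plotted size is not a measured one.

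Other genes of amino acid handling gave a frame for these counts. Of 22 tested amino acid carriers from other families, 7 rose and 4 fell in Keap1 null relative to WT allografts, and 4 rose and 3 fell in dishes. The shares of all targets called there were 41.8% and 21.1%. Slc6a9, a glycine importer, had a log2 difference of 1.96 between allografts (limma adjusted p = 4.93e-05), and Slc6a15, an importer of branched-chain amino acids and proline, had 2.93 in allografts and 2.34 in dishes (adjusted p = 5.35e-05 and 0.000269). Slc15a3, a lysosomal peptide and histidine carrier of immune cells, had -2.13 between allografts (adjusted p = 0.00252) and 7.23 for WT allografts relative to dishes (adjusted p = 1.03e-05). Between allograft and dish 5 of these carriers rose and 8 fell in Keap1 null, and 4 rose and 12 fell in WT. These growth comparisons called 64.9% and 68.1% of all targets. The difference of the genotype effects was called for 9 of the 22 carriers, 6 higher and 3 lower, and for 32.9% of all targets.

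Of 29 tested genes of amino acid sensing and mTORC1, 8 rose and 6 fell in Keap1 null relative to WT allografts. In dishes 2 rose and 3 fell. Of all targets 41.8% and 21.1% were called there. In allografts relative to dishes 2 rose and 17 fell in Keap1 null, and 1 rose and 18 fell in WT. Of all targets 64.9% and 68.1% were called for these. Rragd, a GTPase that recruits mTORC1 to lysosomes, had log2 differences of 1.94 in allografts and 1.08 in dishes (limma adjusted p = 4.91e-05 and 0.000912). Sesn1, a leucine-sensing inhibitor of mTORC1 signalling, had -1.67 between allografts (adjusted p = 0.000106). Atf4 read 2.85 and 2.92 in Keap1 null allografts, 1.97 and 1.94 in WT allografts, 2.58 and 2.74 in Keap1 null dishes and 3.42 and 3.57 in WT dishes, so that it was 1.91-fold higher in Keap1 null allografts than in WT allografts and 1.78-fold lower in dishes. For the 29 sensing genes, 8 had a higher and 3 a lower genotype effect in allografts than in dishes, a difference called for 32.9% of all targets.

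Of 24 tested enzymes of amino acid metabolism, 8 rose and 8 fell in Keap1 null relative to WT allografts. In dishes 2 rose and 6 fell. Of all targets 41.8% and 21.1% were called there. Asns, which makes asparagine, Gpt2, which makes alanine and glutamate, and Bcat1, which transaminates branched-chain amino acids, had log2 differences of 1.60, 1.72 and 1.71 between allografts (limma adjusted p = 0.000884, 0.000178 and 0.000189). Ass1, which makes argininosuccinate, and Arg1, which splits arginine, had -3.66 and -3.05 (adjusted p = 4.6e-05 and 7.71e-05). Arg1, which macrophages are known to express, was 6.42 higher on the log2 scale in WT allografts than in WT dishes (adjusted p = 2.47e-06). In allografts relative to dishes 4 enzymes rose and 11 fell in Keap1 null, and 5 rose and 16 fell in WT. Of all targets 64.9% and 68.1% were called for these. The genotype effect was higher in allografts for 5 of the 24 enzymes and lower for 4, a difference called for 32.9% of all targets.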

How the data were processed

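RNA of 2 MEF lines in dishes and allografts was measured on 8 arrays of 1 colour (Cy3), starting from 500 ng of RNA each, per the labels. The deposited intensities came from Agilent Feature Extraction 10.7.3.1, which, per the file headers, had subtracted background without scaling arrays to each other. The series' value table holds the same deposited intensities, within 0.5%. The deposited files hold no mean signal, so normexp (offset 50) used the median signals. Gene names came from matching accessions to RefSeq (GRCm38.p6), the only naming available here.

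The 75th percentile of each array was subtracted on the log2 scale, control and outlier spots were left out, and repeat spots were averaged. Probes well above background on both arrays of a group were tested, and a gene was its brightest tested probe: 30358 probes and 22922 targets, 14857 with a symbol. One limma 3.58.1 fit (R 4.3.3) of 4 group means, with 4 residual and 1.83 prior degrees of freedom, gave the 5 comparisons, called at an adjusted p below 0.05 over all targets. The fit was checked on simulated data. Folds are ratios of geometric means. An exact permutation of 2 against 2 arrays cannot go below 0.333, so none was made. The number of arrays limits the precision.

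Replicate 1 of every group is on slide 1 and replicate 2 on slide 2, and deviations of same-numbered arrays correlated at 0.247 to 0.429 in all 6 pairs of groups, so the numbers pair the arrays and the slide block is the replicate block. Alternatives were quantile, median and no scaling, normexp, 2 other filters, the mean of probes, the block, and leaving out each array, when the lone array is assumed to vary like the rest. Values on all arrays are given for called carriers of at least 2-fold and for Slc3a2, Slc7a5, Slc7a6, Slc7a7 and Slc7a8. The members and gene lists were chosen with earlier results of these data known.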

Additional observations from a re-analysis of the deposited data

Results flagged for a closer look

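Each carrier below had a genotype effect (Keap1 null minus WT, log2) in allografts that differed from its effect in dishes, by the interaction term of the limma fit. Of all targets tested, 32.9% were called for this term.

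The fitted sizes for Slc1a1, Slc1a2, Slc1a3 and Slc7a2 rest on groups below background and are no measured difference.

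Positive differences, with a higher genotype effect in allografts, were 3.95 for Slc1a1, 3.31 for Slc1a2, 1.90 for Slc3a2, 1.89 for Slc38a1, 1.72 for Slc7a3, 1.52 for Slc7a1, 1.51 for Slc1a5, 1.27 for Slc38a2, 1.03 for Slc7a5, 0.99 for Slc1a4, 0.51 for Slc38a7 and 0.40 for Slc7a6os. For Slc7a1 and Slc1a5 the effect was called in opposite directions, 0.39 and 0.97 in allografts against -1.13 and -0.54 in dishes. The Slc7a1 call in allografts ended on leaving out any 1 of the 8 arrays, and the Slc1a5 call in dishes on leaving out any dish array. For Slc7a5 the call ended without the first Keap1 null dish, Keap1 null allograft or WT allograft array or either WT dish array (adjusted p 0.0511 to 0.082). For Slc38a7 it ended without any array but the second WT dish array (0.0536 to 0.096), and for Slc7a6os without any of the 8 (0.0823 to 0.154). With normexp the call ended for Slc1a1 (0.66, adjusted p = 0.0573), Slc38a7 (0.44, 0.182) and Slc7a6os (0.32, 0.179). Unscaled it ended for Slc1a4 (0.64, adjusted p = 0.185), Slc7a5 (0.68, 0.249), Slc38a2 (0.91, 0.0501), Slc38a7 (0.15, 0.746) and Slc7a6os (0.04, 0.935). With quantile normalization it ended for Slc7a5 (0.80, adjusted p = 0.063) and Slc7a6os (0.21, 0.21), and without the filter on dim probes for Slc38a7 (adjusted p = 0.0542) and Slc7a6os (0.0951).

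Negative differences were -4.77 for Slc1a3, -3.53 for Slc7a2, -3.47 for Slc38a4, -2.72 for Slc7a4, -1.32 for Slc43a3, -1.02 for Slc7a8, -0.85 for Slc36a1, -0.72 for Slc7a7 and -0.61 for Slc38a10. The call ended for Slc7a7 with median scaling (-0.54, adjusted p = 0.0846) or without the second Keap1 null dish array (adjusted p = 0.0598), and for Slc7a8 without the first (0.0606). For Slc36a1 it ended without either Keap1 null or WT dish array, the first Keap1 null allograft or the second WT allograft (0.0572 to 0.0867). For Slc38a10 it ended without any array but the first WT dish array (0.0552 to 0.0977), with median scaling (-0.43, adjusted p = 0.214), without the filter on dim probes (0.0582) and with the mean of its probes (-0.38, adjusted p = 0.108). For Slc7a2 it ended with normexp (-0.39, adjusted p = 0.223). With groups of 2 arrays, single arrays were not tested as outliers.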

How the results depend on the processing

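Of 93 gene and comparison pairs called, 48 kept their call and direction in every alternative. In dishes, of the main 11 carriers called (6 higher, 5 lower), 7 were called unscaled (2 lower), 5 with normexp (2 higher and 3 lower) and 7 without the filter on dim probes (3 lower), and leaving out 1 array gave 5 to 13 (3 to 8 higher, 2 to 5 lower). For growth in WT, median scaling gave 7 higher and 19 lower. For growth in Keap1 null it gave 6 higher and 20 lower, unscaled values gave 5 lower and normexp 5 lower, and leaving out 1 array gave 12 to 19 called (3 to 9 lower), the 12 without the first Keap1 null dish array. For the difference of the genotype effects, unscaled values gave 7 higher and 14 lower. Directions turned for growth in WT as follows (log2): Slc3a1 -0.49 with quantile normalization and -0.43 with median scaling; Slc36a4 -0.41 and -0.51; Slc38a2 0.02 with quantile normalization; with median scaling Slc7a3 -0.55, Slc36a1 -0.62, Slc38a4 -0.71, Slc38a9 -0.98 and Slc38a10 -0.44; and Slc38a4 -0.37 with the mean of probes. For growth in Keap1 null they turned for Slc1a2 (-0.14 with quantile normalization, -0.08 with median scaling) and, with median scaling, for Slc3a2 (-0.00), Slc7a1 (-0.51), Slc36a4 (-0.54), Slc38a1 (-0.74), Slc38a2 (-0.08) and Slc38a9 (-0.80). For Slc7a10, whose WT allografts disagreed, leaving out 1 of them gave -1.30 or 3.59 between allografts, -0.65 or 4.24 for growth in WT and -1.19 or 3.71 for the difference. With the mean of probes the difference of the genotype effects was -0.67 for Slc38a9. Median scaling moved the median of all targets by about as much, -1.01 in WT and -0.78 in Keap1 null. The replicate block called 14 carriers in dishes, 21 in allografts, 19 for growth in Keap1 null, 26 for growth in WT and 22 for the difference, and changed no call but those given with it. The cause of the other changes was not tested.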
